A study of Mus musculus with 48 samples.

Results

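Chemokines are small secreted proteins that guide leukocytes, and 10 of their genes were followed here after Roux-en-Y gastric bypass (RYGB), which leads food from a small gastric pouch straight into the jejunum, or after sham surgery: Ccl2, Ccl7, Ccl8, Ccl6, Ccl9, Cxcl9, Cxcl10, Cxcl12, Cxcl14 and Cxcl16. They were chosen by symbol, 1 line for each Ensembl gene, and are 10 of the 15541 genes listed in any of the 6 tissue tables. The table of liver listed 9 of them, all but Ccl8, and that of subcutaneous white adipose tissue (WAT) listed all 10. Muscle had 8, duodenum 4, jejunum 4 and ileum 3, which makes 38 pairs of a gene and a tissue. All 38 had a mean of at least 1 CPM, the minimum for a test, where CPM is the share of a library's counted reads that fell on the gene, scaled to a common total. Every gene listed for liver or WAT reached 1 CPM in at least 4 libraries, so a gene with 1 low group was listed only because of the other group. Ccl7 in liver is such a gene, since 0 of its 4 sham libraries reached 1 CPM.

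Male C57Bl6 mice with diet-induced obesity, fed a high fat diet, underwent RYGB or sham surgery and were studied 9 days later. Both groups received an elemental liquid diet after surgery, and both were fasted overnight and killed at 10am. The mRNA of liver, WAT and gastrocnemius muscle was sequenced in 4 RYGB and 4 sham libraries each, that of the scraped villi of duodenum and of jejunum in 3 RYGB and 4 sham libraries each, and that of ileal villi in 5 and 5, which gives 48 libraries. The labels number the libraries of a group without naming the mouse, say nothing of weight-matching, and do not tie libraries of different tissues to the same mouse. The p-values therefore measure the spread between these libraries.

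Chemokines with the CC motif mostly attract monocytes, macrophages and eosinophils, and those with the CXC motif attract neutrophils or lymphocytes, each through G protein-coupled receptors. In obesity, Ccl2 from adipose tissue and liver is known for drawing monocytes that carry the receptor Ccr2. Cxcl9 and Cxcl10 are induced by interferon-gamma, whereas Cxcl12 is made steadily by stromal cells. These tissues were measured in bulk, so fewer cells of a type and less RNA per cell cannot be told apart.

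The labelled tissues carried their markers: the 6 hepatocyte genes summed to between 81848 and 115888 CPM over the 8 liver libraries, and the 6 adipocyte genes to between 6536 and 20093 CPM over the 8 WAT libraries. Other cell types differed between the groups. In WAT, all 8 B cell markers were higher after RYGB, with sums of 1054 to 2827 CPM against 13.0 to 24.0 CPM in sham. So were 6 of 8 T and natural killer cell markers (251 to 916 CPM against 13.6 to 27.3 CPM) and 4 of 6 markers of lymph node vessels and stroma (168 to 450 CPM against 43.7 to 92.9 CPM). Among the latter, Glycam1 stood at 42.0 to 136 CPM after RYGB and at 0.0 to 0.2 CPM in sham. It is a product of lymph node high endothelial venules, and Ccl19 and Ccl21a were not listed. The B cell marker Pax5 and the lymph node markers Glycam1 and Chst4 were below 1 CPM in every sham library. They were thus listed only through the RYGB libraries, so their direction was set by the listing, although the counts include them. Apart from them, the lymph node markers called were Fut7 and Cxcl13. Over all genes tested in WAT, 14.9% were called higher and 9.23% lower. Adipocyte markers summed to between 6536 and 12764 CPM after RYGB and between 13702 and 20093 CPM in sham, with 1 of 6 called lower. Keratinocyte markers summed to 4.2 to 153 CPM in sham WAT and to 5.2 to 7.7 CPM after RYGB. Krt5 stood at 1.0 to 72.1 CPM in sham and at 0.0 to 0.1 CPM after RYGB. Both Krt5 and Dsp were below 1 CPM in every RYGB library and so were listed only through sham. Krt14, Krt15, Dsg3 and Lor were not listed.

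In liver, RYGB library 2 stood apart. The 6 listed neutrophil markers summed to 653 CPM in it, to 40.3 to 94.5 CPM in the other RYGB libraries and to 12.1 to 20.4 CPM in sham, and Ly6g was not listed. The 20 macrophage and monocyte markers summed to 3555 CPM in it, to between 1254 and 1392 CPM in the others and to between 631 and 1105 CPM in sham. Liver RYGB library 3 differed in other genes. Its Timd4 (1.9 CPM), Cd163 (2.5 CPM), Marco (14.3 CPM) and Cxcl13 (0.2 CPM) lay below every sham library. Its sum of fibroblast markers was the highest (911 CPM). In WAT, RYGB library 4 had the highest sums of neutrophil (266 CPM), B cell (2827 CPM) and T cell (916 CPM) markers and the lowest of adipocyte markers (6536 CPM). Results are therefore also given without RYGB library 2 in liver and without RYGB library 4 in WAT.

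**Figure D1:**
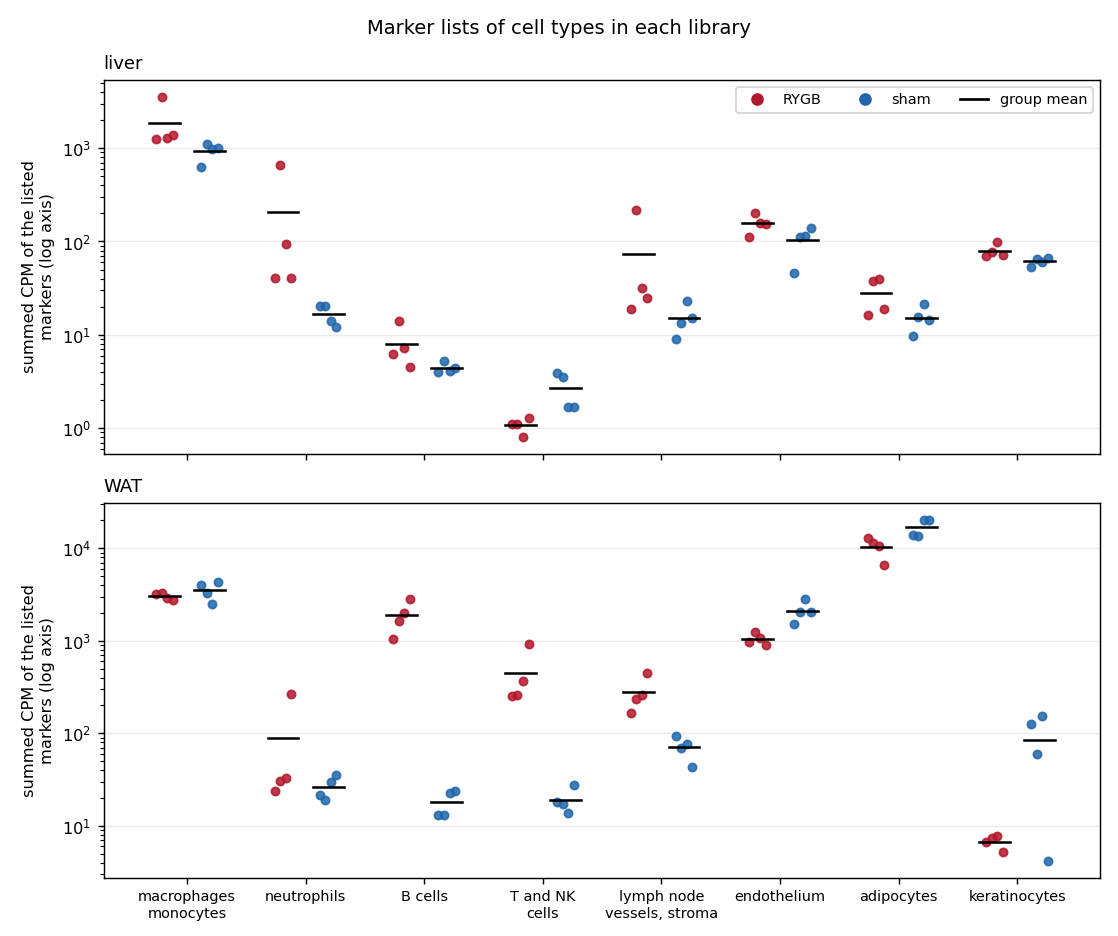
Summed CPM of the listed markers of 8 cell types (logarithmic vertical axis) in each liver library (top) and each WAT library (bottom), red for RYGB and blue for sham, with group means as black lines. In WAT the B cell sums lie between 1054 and 2827 CPM after RYGB and between 13.0 and 24.0 CPM in sham, and in liver 1 RYGB library reaches 653 CPM of neutrophil markers.

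RYGB was compared with sham in each tissue by limma on log2(CPM + 1). A gene was called at an adjusted p under 0.05, with Benjamini-Hochberg adjustment over all genes of the tissue, and a fold change of at least 1.5. In liver, 4 of the 9 listed ligands were called, all higher after RYGB: Ccl2, Ccl7, Ccl6 and Cxcl16. Without Ccl7, which was listed only through its RYGB libraries, 3 of the other 8 were called. Over all 11807 genes tested in liver, 7.08% were called, 5.79% as higher and 1.29% as lower. In WAT, 6 of the 10 ligands were called, with Ccl2, Ccl7, Ccl6, Ccl9 and Cxcl14 lower and Cxcl16 higher. Over all 13379 genes tested in WAT, 24.1% were called, 14.9% as higher and 9.23% as lower. All RYGB libraries lay above all sham libraries for 4 ligands in liver, Ccl7 among them, beside 13.4% of all genes, and below them for 0, beside 3.05%. In WAT they lay above for 1 ligand, beside 26.1% of all genes, and below for 4, beside 15.0%.

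The median log2 fold change was 0.79 over the 9 ligands in liver and -0.82 over the 10 in WAT, where the medians of all genes tested were 0.13 and 0.10. Median-ratio scaling between libraries took this general shift away and moved the split of all calls, in liver from 684 higher and 152 lower to 437 and 235, and in WAT from 1996 and 1235 to 1642 and 1668. The called ligands held their direction and their call under it, with 4 higher in liver, and with 1 higher and 6 lower in WAT, where Cxcl9 joined. Without RYGB library 2, 3 of the 8 ligands still tested in liver were called, and without RYGB library 4, 6 of the 10 in WAT. Without RYGB library 3 of liver, 4 ligands were called there.

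**Figure D2:**
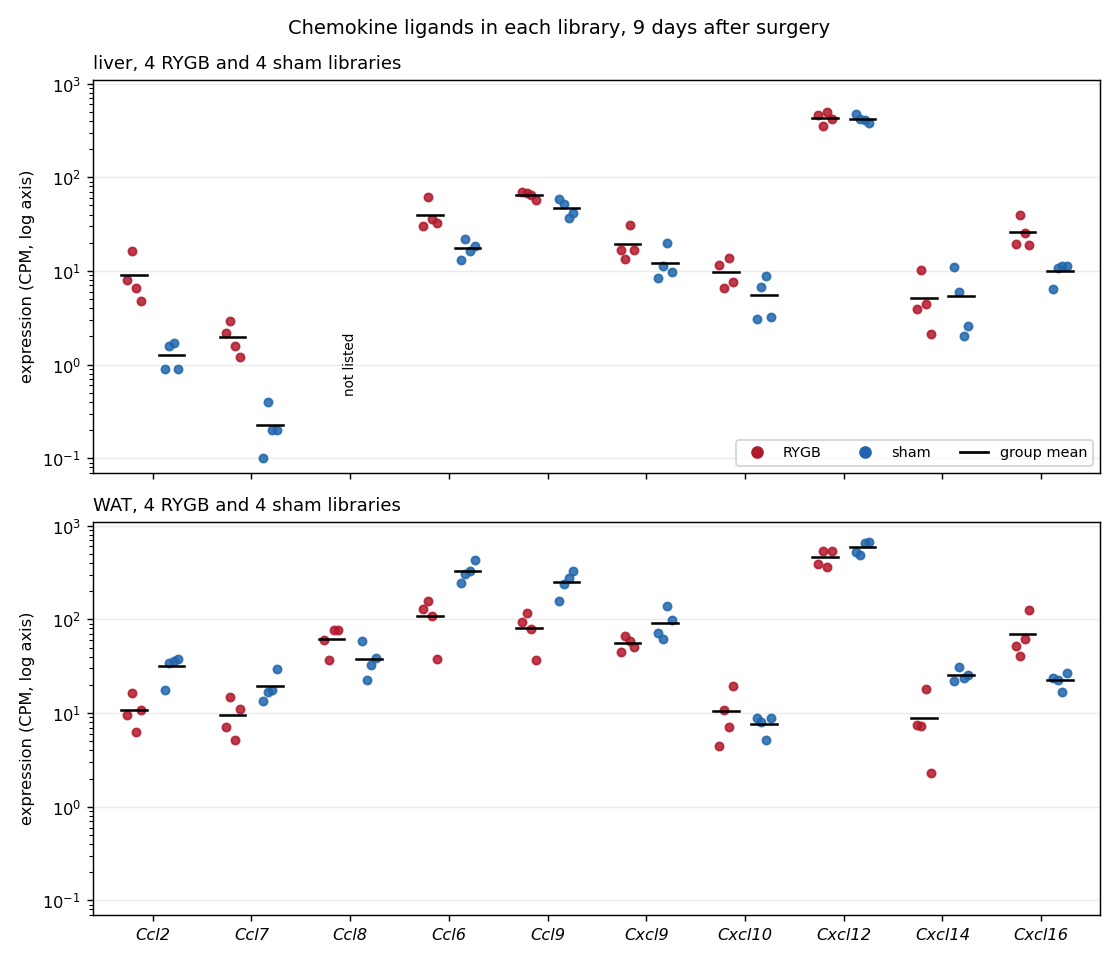
Expression of the 10 ligands in CPM (logarithmic axis) in each of the 4 RYGB (red) and 4 sham (blue) libraries of liver (top) and WAT (bottom), with group means as black lines. Ccl2 and Ccl6 lie above sham in every RYGB library of liver and below sham in every RYGB library of WAT, and Cxcl16 lies above sham in both.

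Ccl2 and Ccl7 are ligands of Ccr2, the receptor that brings inflammatory monocytes out of the blood. They lie next to each other, 8.3 kb apart on chromosome 11 (GRCm38, GENCODE M21: Ccl2 at chr11:82035571-82037453, Ccl7 at chr11:82045712-82047525, both on the plus strand). Ccl2 measured 8.0, 16.5, 6.5 and 4.8 CPM in RYGB livers 1 to 4 and 0.9, 1.6, 1.7 and 0.9 CPM in sham livers. The lowest RYGB liver was well above the highest sham liver, and RYGB library 2 was the highest of all. This gave a log2 fold change of 2.02 ± 0.30 (SE), or 4.06-fold on the log2(CPM + 1) scale (limma, adjusted p = 0.00506). It was 1.71 without RYGB library 2 (adjusted p = 0.00171), and between 1.79 and 2.95 within the 3 sequencing lanes that held both groups.

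In WAT the order of the groups was the opposite. Ccl2 measured 9.5, 16.3, 6.3 and 10.9 CPM after RYGB and 17.5, 34.5, 35.9 and 38.0 CPM in sham. The groups did not overlap, although sham library 1 came close to RYGB library 2. With a log2 fold change of -1.48 ± 0.31, sham was 2.78-fold higher (limma, adjusted p = 0.00861), and it was -1.51 without RYGB library 4. Within the 2 lanes with both groups it was -1.71 and -1.19. The values of liver and WAT come from tables normalised separately, and the difference between the tissues was not tested.

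Ccl7 had the signs of Ccl2 in both tissues. In liver it measured 2.2, 2.9, 1.6 and 1.2 CPM after RYGB and 0.1, 0.4, 0.2 and 0.2 CPM in sham. Every sham value was within a few rounding steps of 0.1 CPM, and no RYGB value was as low. Its log2 fold change was 1.25 ± 0.20 (limma, adjusted p = 0.00747), a scale that understates the change of so low a gene, and without RYGB library 2 the mean fell under 1 CPM and no test was made. In WAT, Ccl7 measured 7.1, 15.0, 5.1 and 11.1 CPM after RYGB and 13.3, 16.7, 17.7 and 29.6 CPM in sham, and the groups overlapped at RYGB library 2. A log2 fold change of -0.98 ± 0.33 was called (limma, adjusted p = 0.0436). This call was lost with lane as a covariate (adjusted p = 0.0839) and without any 1 of 5 libraries, RYGB 1, RYGB 3, sham 2, sham 3 or sham 4 (log2 fold changes of -1.03 to -0.75, adjusted p of 0.0773 to 0.105).

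Ccl8, which in the mouse acts on Ccr8 of T cells and eosinophils, lies 67.7 kb beyond Ccl7 on the same strand (chr11:82115185-82116799), with Ccl11 and Ccl12 in between. It was not listed in liver. In WAT it measured 59.8, 36.5, 76.6 and 76.9 CPM after RYGB and 58.2, 22.3, 32.4 and 38.4 CPM in sham, opposite in order to Ccl2 and Ccl7. RYGB libraries 1, 3 and 4 exceeded every sham value and RYGB library 2 lay among them. The log2 fold change of 0.73 ± 0.31 was not called (limma, adjusted p = 0.0926), although it was called without RYGB library 2 or without sham library 1.

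Ccl6 and Ccl9 are mouse CC chemokines of myeloid cells that act on Ccr1, and lie 9.2 kb apart on the minus strand of chromosome 11 (Ccl6 at chr11:83587882-83593087, Ccl9 at chr11:83572919-83578636). Their upstream windows are shown because both genes were lower in WAT and only Ccl6 was called in liver. RefSeq promoters (GRCm38.p6) matched 7 of the 10 ligands, all but Ccl2, Ccl7 and Cxcl16. The 250 bases before each start are written 5′ to 3′ on the strand of the gene. Capitals mark matches, on either strand, to the AP-1 site TGANTCA, to the kappaB consensus, to the gamma-activated site core TTCNNNGAA or to the interferon-stimulated response element core (GAAA, any 2 bases, GAAA).
Ccl6 (chr11:83593088-83593337, minus strand): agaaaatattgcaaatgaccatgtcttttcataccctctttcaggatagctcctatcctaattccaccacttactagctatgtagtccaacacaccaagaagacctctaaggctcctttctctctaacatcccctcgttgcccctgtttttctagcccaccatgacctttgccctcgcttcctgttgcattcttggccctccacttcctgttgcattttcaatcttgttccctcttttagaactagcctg
Ccl9 (chr11:83578637-83578886, minus strand): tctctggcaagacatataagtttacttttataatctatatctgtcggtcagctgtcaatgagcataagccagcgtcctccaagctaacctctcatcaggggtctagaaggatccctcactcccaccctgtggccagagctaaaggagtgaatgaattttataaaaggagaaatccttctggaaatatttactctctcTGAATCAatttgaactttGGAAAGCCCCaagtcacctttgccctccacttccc
The Ccl6 window held no match. That of Ccl9 held an AP-1 match 53 to 47 bases before the start and a kappaB match at 35 to 26 bases. Of all 32851 promoter windows of this length, 6.75% held an AP-1 match, 3.9% a kappaB match, 7.02% a gamma-activated site match and 2.98% an interferon-stimulated response element match. A match describes letters and not a bound factor.

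In liver, Ccl6 measured 30.1, 60.9, 35.6 and 32.6 CPM after RYGB and 13.0, 22.1, 16.2 and 18.3 CPM in sham. All RYGB livers were above all sham livers, again with RYGB library 2 the highest. The log2 fold change was 1.12 ± 0.22 (limma, adjusted p = 0.0156), 0.90 without that library (adjusted p = 0.0154), and 0.43 to 1.76 within lanes. Ccl9 measured 70.4, 68.1, 64.7 and 56.8 CPM after RYGB and 58.2, 52.4, 36.7 and 41.6 CPM in sham. The groups overlapped only through RYGB library 4 and sham library 1. The log2 fold change of 0.47 ± 0.15 was not called (limma, adjusted p = 0.0703).

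In WAT both genes were lower after RYGB. Ccl6 measured 128, 156, 110 and 38.0 CPM after RYGB and 245, 302, 328 and 434 CPM in sham. Ccl9 measured 94.4, 117, 78.1 and 36.9 CPM after RYGB and 155, 238, 273 and 327 CPM in sham. For each gene every RYGB library was below every sham library, and RYGB library 4 was the lowest. Ccl6 had a log2 fold change of -1.74 ± 0.40, 3.33-fold higher in sham (limma, adjusted p = 0.0126), and that of Ccl9 was -1.66 ± 0.35, 3.16-fold higher in sham (adjusted p = 0.00961). Without RYGB library 4 they were -1.30 and -1.32 (adjusted p of 0.0021 and 0.00532). Within the 2 lanes they were -3.48 and -1.05 for Ccl6, and -3.12 and -0.998 for Ccl9.

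Cxcl9 and Cxcl10 are interferon-gamma-induced ligands of Cxcr3, the receptor of activated T cells, and lie 18.6 kb apart on the minus strand of chromosome 5 (Cxcl9 at chr5:92321347-92328079, Cxcl10 at chr5:92346638-92348889). Their upstream windows are shown with the same marks because neighbours induced by a common signal can be compared letter by letter.
Cxcl9 (chr5:92328080-92328329, minus strand): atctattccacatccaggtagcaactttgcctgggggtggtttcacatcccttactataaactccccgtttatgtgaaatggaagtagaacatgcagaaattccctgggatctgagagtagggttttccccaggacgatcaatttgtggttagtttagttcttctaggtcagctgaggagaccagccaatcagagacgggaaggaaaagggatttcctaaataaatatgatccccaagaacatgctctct
Cxcl10 (chr5:92348890-92349139, minus strand): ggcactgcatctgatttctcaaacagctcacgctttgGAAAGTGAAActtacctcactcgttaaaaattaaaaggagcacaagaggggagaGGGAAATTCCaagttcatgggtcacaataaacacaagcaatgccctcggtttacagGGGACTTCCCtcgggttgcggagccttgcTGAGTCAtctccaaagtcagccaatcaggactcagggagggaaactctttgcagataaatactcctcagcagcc
The Cxcl9 window held no match. That of Cxcl10 held an interferon-stimulated response element match 213 to 204 bases before the start, kappaB matches at 159 to 150 and at 103 to 94 bases, and an AP-1 match at 74 to 68 bases. Of the windows of Ccl8, Cxcl12 and Cxcl14, which are not printed, that of Cxcl14 held a gamma-activated site match at 191 to 183 bases and an interferon-stimulated response element match at 172 to 163 bases, and the others held none.

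Neither gene was called in liver or WAT. In liver, Cxcl9 measured 16.9, 13.3, 30.7 and 16.6 CPM after RYGB and 8.5, 11.2, 19.8 and 9.7 CPM in sham, a log2 fold change of 0.62 ± 0.28 (limma, adjusted p = 0.181). Cxcl10 measured 11.5, 6.5, 13.7 and 7.6 CPM after RYGB and 3.1, 6.8, 8.8 and 3.2 CPM in sham, a log2 fold change of 0.79 ± 0.31 (adjusted p = 0.129). Both were highest in RYGB library 3 and, within sham, in sham library 3, and the groups overlapped. In WAT the pair parted in sign. Cxcl9 measured 45.2, 66.6, 58.7 and 51.2 CPM after RYGB and 70.7, 61.6, 138 and 98.8 CPM in sham, with overlap at sham library 2 and a log2 fold change of -0.67 ± 0.24 (limma, adjusted p = 0.0563) that was called without sham library 2. Cxcl10 measured 4.5, 10.7, 7.1 and 19.4 CPM after RYGB and 8.8, 8.0, 5.1 and 8.8 CPM in sham. The RYGB values of Cxcl10 spread on both sides of sham, with a log2 fold change of 0.25 ± 0.37 (adjusted p = 0.602) that was -0.08 without RYGB library 4.

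Cxcl12, the ligand of Cxcr4 and Ackr3 made by stromal cells (chr6:117168535-117181367, plus strand), was not called in either tissue. In liver it measured 464, 350, 500 and 417 CPM after RYGB and 474, 414, 412 and 383 CPM in sham. The groups overlapped throughout, and the log2 fold change was 0.03 ± 0.14 (limma, adjusted p = 0.903) and -0.12 with median-ratio scaling. In WAT it measured 394, 541, 366 and 535 CPM after RYGB and 530, 491, 660 and 666 CPM in sham. The groups overlapped here too, and the log2 fold change was -0.36 ± 0.18 (adjusted p = 0.137).

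Cxcl14, a chemokine of epithelia and adipose tissue (chr13:56288643-56296551, minus strand), was called in WAT alone. In WAT it measured 7.5, 7.3, 18.1 and 2.3 CPM after RYGB and 21.9, 31.2, 23.4 and 25.4 CPM in sham. Every RYGB library was below every sham library, with RYGB library 3 nearest to them. Its log2 fold change was -1.69 ± 0.44, 3.22-fold higher in sham (limma, adjusted p = 0.0193), -1.25 without RYGB library 4 (adjusted p = 0.0126), and not called without sham library 2 (adjusted p = 0.053). Within the 2 lanes it was -3.00 and -1.11. Of the keratinocyte markers, Krt5 and Dsp were called lower in the same WAT libraries (2 of 4 listed), beside 9.23% of all genes. As both were below 1 CPM in every RYGB library, they were listed only through the sham libraries. The sums by group are given above. In sham WAT libraries 1 to 4 the keratinocyte markers summed to 124.8, 60.1, 152.8 and 4.2 CPM, beside the sham Cxcl14 values just given in the same order. The part of the keratinocyte markers in the Cxcl14 values was not tested. In liver, Cxcl14 measured 3.9, 10.3, 4.4 and 2.1 CPM after RYGB and 10.9, 6.0, 2.0 and 2.6 CPM in sham. Both groups covered almost the same range there (log2 fold change 0.01 ± 0.46, adjusted p = 0.99).

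Cxcl16, a chemokine made as a transmembrane protein that binds Cxcr6 of T and natural killer T cells and also takes up oxidised lipid (chr11:70453983-70459984, minus strand), was the only 1 of the 10 called higher in both liver and WAT. In liver it measured 19.3, 39.7, 25.2 and 18.8 CPM after RYGB and 6.4, 10.7, 11.4 and 11.2 CPM in sham. In WAT it measured 51.7, 40.9, 61.5 and 127 CPM after RYGB and 23.7, 22.3, 16.8 and 26.9 CPM in sham. In both tissues each RYGB library lay above each sham library, and the library that stood apart in its markers was the highest. The log2 fold change was 1.26 ± 0.24 in liver (limma, adjusted p = 0.0141) and 1.49 ± 0.31 in WAT (adjusted p = 0.00925), or 2.39-fold and 2.80-fold. Without those libraries it was 1.04 in liver (adjusted p = 0.0174) and 1.16 in WAT (adjusted p = 0.00236). Within lanes it ranged from 0.80 to 1.73 in liver and was 1.09 and 2.20 in WAT.

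**Figure D3:**
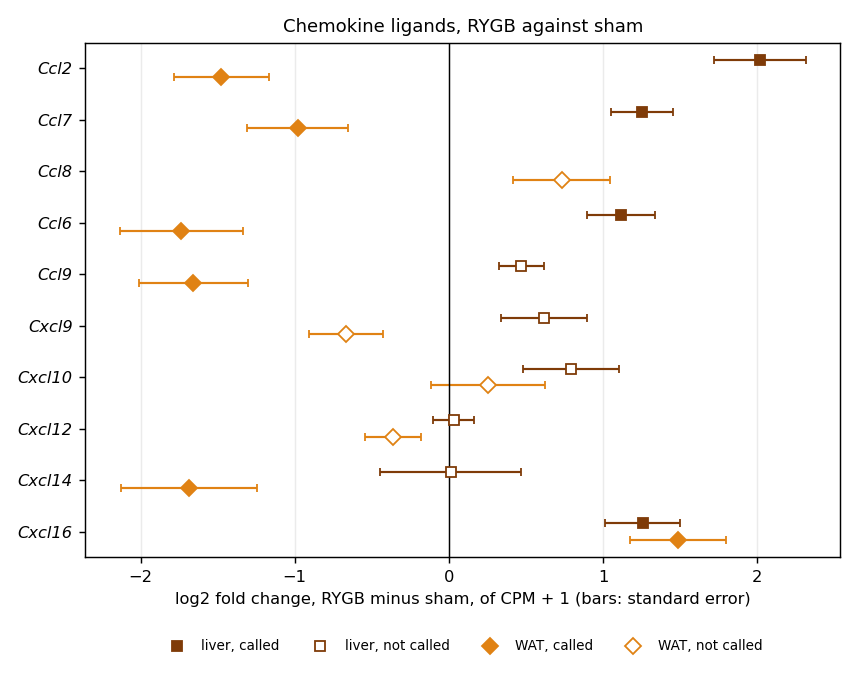
Log2 fold change of each ligand, RYGB minus sham, on the log2(CPM + 1) scale, with standard errors as bars, in liver (squares) and WAT (diamonds), filled where called. Ccl2, Ccl7 and Ccl6 stand at 2.02, 1.25 and 1.12 in liver and at -1.48, -0.98 and -1.74 in WAT, and Cxcl16 stands at 1.26 and 1.49.

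Levels can be compared between the genes only per length, here as the group mean CPM per kb of annotated exon. The length is the union of exons over all transcripts, 8176 bases for Cxcl12, 1795 for Ccl6 and 511 for Ccl8. A gene read mainly from a shorter transcript would stand higher than given, so the order depends on this choice. In CPM alone, Cxcl12 was the highest in sham WAT (mean of 586.8 CPM against 327.5 CPM for Ccl6). In sham liver Cxcl12 led with 51.5 CPM per kb, before Ccl9 with 15.5 and Ccl6 with 9.69. The library ranges of Ccl9 (12.05 to 19.1) and Ccl6 (7.24 to 12.3) overlapped slightly. Ccl2 and Ccl7 were the lowest, with 1.12 and 0.28. In sham WAT Ccl6 led with 182 CPM per kb, followed by Ccl9 with 81.6, Ccl8 with 74.0 and Cxcl12 with 71.8, whose library ranges overlapped one another and lay below that of Ccl6. Ccl2 had 27.7 and Ccl7 24.1 there, close together, and Cxcl10 was the lowest with 3.41. After RYGB the order in WAT was led by Ccl8 with 122 CPM per kb, followed by Ccl6 with 60.1 and Cxcl12 with 56.2, and the ranges of Ccl8 and Ccl6 overlapped.

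In the other 4 tissues the ligands showed 1 call in 19 pairs. In jejunal villi 1 of 4 was called, Cxcl16, beside 9.75% of all genes called and 4.62% called as higher. It measured 133, 210 and 145 CPM after RYGB and 48.6, 61.2, 49.1 and 60.4 CPM in sham. The lowest RYGB library was far above the highest sham library, with a log2 fold change of 1.53 ± 0.20, or 2.89-fold (limma, adjusted p = 0.00203), and 1.33 within the 1 lane that held both groups. Cxcl10 was called as well without RYGB library 1. In muscle 0 of 8 were called by limma, and 0 had an unadjusted p under 0.05, beside 0.0% of all genes called and 1746 of 11966 at an unadjusted p under 0.05. In duodenal villi 0 of 4 were called and 3 had an unadjusted p under 0.05, beside 0.00922% of all genes called and 2040 of 10850 at an unadjusted p under 0.05. In ileal villi 0 of 3 were called and 1 had an unadjusted p under 0.05, beside 6.05% of all genes called and 2842 of 10735 at an unadjusted p under 0.05. No sequencing lane held both RYGB and sham libraries of ileum, so surgery and lane cannot be told apart there.

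Cxcl16 had a positive log2 fold change in all 6 tissues. In duodenal villi it measured 66.8, 91.7 and 54.1 CPM after RYGB and 55.6, 50.6, 36.6 and 32.1 CPM in sham (0.69 ± 0.24, limma, adjusted p = 0.197). In ileal villi it measured 138, 51.7, 135, 87.8 and 34.3 CPM after RYGB and 51.3, 56.8, 33.8, 42.3 and 41.2 CPM in sham (0.80 ± 0.34, adjusted p = 0.156, called without RYGB library 5). In muscle, where it was near the minimum for a test, it measured 2.4, 2.1, 2.2 and 1.4 CPM after RYGB and 1.4, 1.0, 2.1 and 1.4 CPM in sham (0.30 ± 0.17, adjusted p = 0.474). The groups overlapped in these 3 tissues, and whether the fold changes of the tissues differed was not tested.

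**Figure D4:**
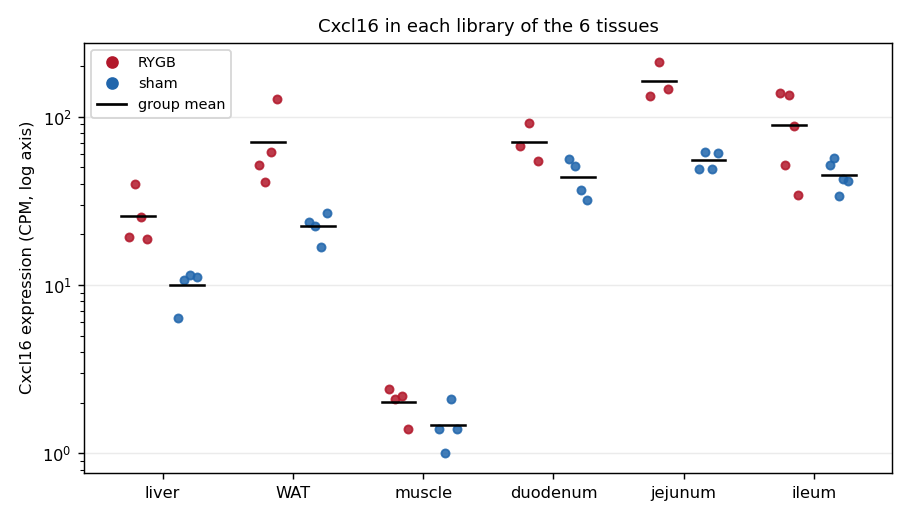
Cxcl16 expression in CPM (logarithmic axis) in each RYGB (red) and sham (blue) library of the 6 tissues, with group means as black lines. The groups are apart in liver, WAT and jejunum, where the RYGB libraries lie between 133 and 210 CPM and the sham libraries between 48.6 and 61.2 CPM, and overlap in muscle, duodenum and ileum.

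Cxcl10 ranged from 0.1 to 34.9 CPM in RYGB ileum and from 0.7 to 33.0 CPM in sham ileum, and in jejunum it measured 0.6, 23.3 and 10.2 CPM after RYGB and 0.5, 4.9, 0.9 and 1.0 CPM in sham (log2 fold change 1.65 ± 0.80, limma, adjusted p = 0.24). Ccl6 in duodenum measured 46.2, 30.9 and 53.8 CPM after RYGB and 21.4, 13.8, 13.5 and 41.3 CPM in sham. Sham library 4 alone reached the RYGB range of Ccl6, whose log2 fold change of 1.04 ± 0.38 was not called (adjusted p = 0.207) but was called without that library. In muscle, Ccl6 and Ccl9 were highest in sham library 3 and lowest in sham library 1, so the sham range (3.5 to 18.0 CPM for Ccl6) enclosed the RYGB range (7.7 to 12 CPM).

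The receptors were read from the same fit. Over all genes tested, 5.79% were called higher and 1.29% lower in liver, and 14.9% and 9.23% in WAT. Of 12 receptors, 9 were listed in liver, with 3 called higher and 0 lower (median log2 fold change 0.53), and 11 were listed in WAT, with 3 higher and 4 lower (median -0.45), or 3 and 2 without RYGB library 3 or sham library 2. In liver, Ccr2 rose from a range of 3.2 to 5.8 CPM in sham to one of 10.2 to 29.4 CPM after RYGB (1.82 ± 0.27, limma, adjusted p = 0.00534), Ccr1 from 0.2 to 0.6 CPM up to 1.4 to 4.3 CPM (1.28 ± 0.25, adjusted p = 0.0164), and Cxcr4 from 0.6 to 1.4 CPM up to 2.4 to 4.8 CPM (1.36 ± 0.21, adjusted p = 0.00635). None of these ranges overlapped, and as 0 of 4 sham libraries reached 1 CPM for Ccr1, it was listed in liver only through the RYGB libraries. Apart from Ccr1, the receptors called in liver were Ccr2 and Cxcr4. Cxcr6 in liver stood at 0.8 to 1.5 CPM after RYGB and 0.7 to 1.2 CPM in sham (0.19 ± 0.17, adjusted p = 0.502), and Cxcr3 was not listed there.

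In WAT, Cxcr6 rose from a range of 1.1 to 3.3 CPM in sham to one of 13.0 to 52.6 CPM after RYGB (log2 fold change 3.13 ± 0.42, limma, adjusted p = 0.00143), Cxcr3 from 2.2 to 4.6 CPM up to 7.4 to 24.7 CPM (1.67 ± 0.35), and Cxcr4 from 14.2 to 23.6 CPM up to 33.6 to 92.0 CPM (1.24 ± 0.31). Ccr1, the receptor of Ccl6 and Ccl9, fell from 11.7 to 19.0 CPM down to 5.2 to 8.7 CPM (-1.09 ± 0.20, adjusted p = 0.00511). Atypical receptors, which bind chemokines without signalling through G proteins, fell as well: Ackr3 by 1.59 ± 0.47 on the log2 scale, Ackr1 by 0.64 ± 0.17 and Ackr2 by 0.64 ± 0.16. The groups met at 20.9 CPM for Ackr1, which was not called with lane as a covariate (adjusted p = 0.0664). Ccr2 in WAT stood at 38.9 to 79.9 CPM after RYGB and 31.6 to 62.8 CPM in sham (0.30 ± 0.26, adjusted p = 0.364), while its ligands Ccl2 and Ccl7 were lower. Ccr3 (-0.52 ± 0.20), an eosinophil receptor, and Ackr4 (0.35 ± 0.24) were not called, although Ccr3 was with lane as a covariate (-0.72, limma, adjusted p = 0.0343). Endothelial markers were lower in the same RYGB libraries (4 of 4 called, or 2 with lane as a covariate), beside 9.23% of all genes. They summed to 903 to 1253 CPM against 1516 to 2836 CPM. T cell markers were higher, as given above, and the part of both kinds of cell in the receptor values was not tested.

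**Figure D5:**
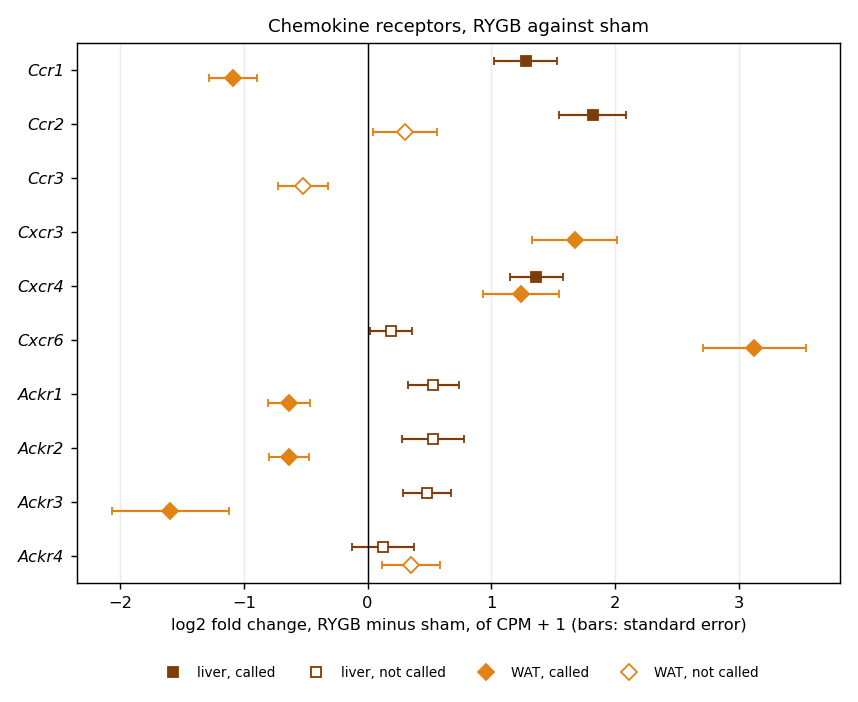
Log2 fold change of 10 chemokine receptors, RYGB minus sham, on the log2(CPM + 1) scale, with standard errors as bars, in liver (squares) and WAT (diamonds), filled where called. Ccr1 stands at 1.28 in liver and at -1.09 in WAT, Cxcr4 at 1.36 and 1.24, and Cxcr6 at 3.13 in WAT.

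Of 28 other chemokine ligands, 10 were listed in liver and 0 were called by limma, beside 7.08% of all genes. There, 3 had an unadjusted p under 0.05 (median log2 fold change 0.12), and 3 were called without RYGB library 4. In WAT 15 were listed, with 5 higher and 2 lower (median -0.17), beside 14.9% and 9.23% of all genes. The counts were 4 higher and 0 lower without RYGB library 3, sham library 1 or sham library 4. The higher ones were Ccl22, a dendritic cell product (47.0 to 210 CPM against 2.0 to 4.4 CPM, log2 fold change 4.43 ± 0.44), Cxcl13, which forms B cell follicles (78.6 to 232 CPM against 1.4 to 22.6 CPM, 4.19 ± 0.62), Ccl5 of T cells (57.9 to 201 CPM against 4.5 to 12.3 CPM, 3.78 ± 0.39), Xcl1 (0.81 ± 0.17) and Ccl12, a further ligand of Ccr2 (4.5 to 12.5 CPM against 2.7 to 4.5 CPM, 0.81 ± 0.28). With lane as a covariate Ccl12 was not called (adjusted p = 0.0675), and 4 were higher and 4 lower. The lower ones were Ccl11, the eosinophil attractant encoded between Ccl7 and Ccl8 (21.2 to 49.4 CPM against 55.5 to 80.8 CPM, -0.89 ± 0.25), and Cxcl2, a neutrophil attractant (0.4 to 1.0 CPM against 1.0 to 2.7 CPM, -0.69 ± 0.22). Cxcl13 is also on the list of lymph node stroma. The lymphocyte and lymph node markers of the same WAT libraries are given above, and their part in these values was not tested.

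The list of 20 genes induced by interferon-gamma was set beside Cxcl9 and Cxcl10. In liver 2 of 19 listed were higher and 0 lower (median log2 fold change -0.28), beside 5.79% and 1.29% of all genes. The higher ones were Gbp2 (0.98 ± 0.25) and Irf8 (0.75 ± 0.21). With median-ratio scaling 1 was higher and 2 lower. The liver count was 0 without RYGB library 2 or without sham library 1, 2 or 4, and 1 without RYGB library 3 or sham library 3. In WAT 7 of 19 were higher and 0 lower (median 0.30), beside 14.9% and 9.23% of all genes. Among them were Ciita, the regulator of MHC class II genes (3.05 ± 0.34), Irf8 (2.10 ± 0.27), Tap1 (1.39 ± 0.23), Psmb8 (1.18 ± 0.18), Psmb9 (1.05 ± 0.18) and Nlrc5 (1.03 ± 0.21). Several of these serve antigen presentation and are abundant in B cells, whose markers were higher in the same libraries. The part of these cells in the values was not tested. Of the genes not called in WAT, Gbp2 (-0.35), Gbp3, Gbp6, Gbp7, Irgm2 and Iigp1 (-0.43) had negative log2 fold changes. Those of Irf1, Gbp4, Gbp5, Igtp (0.42), Irgm1 and B2m were positive.

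The 20 markers of macrophages and monocytes, the cells known to make Ccl6, Ccl9 and much Ccl2, were set beside the ligands. In liver 5 of 20 were higher and 0 lower (median log2 fold change 0.65, beside 5.79% and 1.29% of all genes), or 3 without sham library 4. They included Cd14 (2.26 ± 0.47), Itgam (2.24 ± 0.40), Itgax (2.12 ± 0.31) and Lyz2 (1.81 ± 0.30). Clec4f, the Kupffer cell lectin, stood at 147 to 213 CPM after RYGB and 130 to 244 CPM in sham (-0.12 ± 0.20, limma, adjusted p = 0.712). Timd4, Cd163 and Marco were not called either, but their RYGB livers spread on both sides of sham. Timd4 measured 1.9 to 80.0 CPM against 10.3 to 20.4 CPM in sham, and Cd163 2.5 to 49.9 CPM against 18.7 to 36.2 CPM. Marco measured 14.3 to 854 CPM against 22.9 to 65.4 CPM. In WAT 6 of 19 listed were lower and 4 higher (median -0.50), beside 9.23% and 14.9% of all genes. The counts were 2 and 4 without RYGB library 3 or sham library 4, and 11 and 4 with lane as a covariate. The lower ones were Adgre1 (-1.19 ± 0.40), Cd68 (-1.09 ± 0.26), Itgam, Mrc1, Vsig4 and Fcgr1, and the higher ones were Marco (5.53 ± 0.45), Timd4 (3.33 ± 0.46), Ly6c2 and Aif1. In WAT, 7 of the 19 markers had every RYGB library below every sham library, and 4 had every one above. Over all genes these shares were 15.0% and 26.1%. Among the 7 was Adgre1 (42.6 to 139 CPM after RYGB, 152 to 349 CPM in sham). Ccl6 and Ccl9 also lay below every sham library of WAT in every RYGB library. The part of macrophage number in the ligand values was not tested. Without RYGB library 2, 3 receptors and 5 macrophage markers were called in liver, and without RYGB library 4, 7 receptors, 7 other ligands, 6 interferon-gamma-induced genes and 9 macrophage markers were called in WAT.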

How the data were processed

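The study deposited 1 table for each of 6 tissues, with 1 column for each of 48 mRNA libraries. The values are CPM, which the authors deposited rounded to 0.1. The unit was read from the values, whose column sums ran from 925122 to 998777 after repeated lines were dropped. The submitters' processing notes name HTSeq and GRCm38 with no role, and the aligner and annotation are not given in the sources used here. The depth of the libraries is unknown, so no counting interval was computed and differences near 0.1 CPM cannot be resolved. Repeated lines of a gene (equal in value) were counted once, and 12 incomplete liver lines were left out. All value columns were mapped to samples by name.

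Groups follow the sample titles. In every tissue the RYGB and sham libraries were compared by limma 3.58.1 in R 4.3.3 (empirical Bayes with a trend, two-sided) on log2(CPM + 1). Genes whose mean was under 1 CPM were not tested, and p-values were given a Benjamini-Hochberg adjustment over all genes of the tissue. A call needs an adjusted p under 0.05 and a fold change of at least 1.5. Fold changes are on the log2(CPM + 1) scale. No test was made across tissues, since each table was normalised on its own. The model was also run on simulated data with independent normal noise. These held no lane effects and no outlying libraries, so the run cannot say how the model deals with those. Alternatives were a pseudocount of 0.1, a minimum of 10 CPM or none, median-ratio scaling, lane as a covariate, the replicate number as a block, each library left out in turn, and the adjusted p alone.

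The text names the 10 ligands in every tissue that lists them. From the lists of receptors, other ligands and interferon-gamma-induced genes it names those called in liver or WAT, at most 8 a list by size of change. It also names receptors of the ligands that were not called, and interferon-gamma-induced genes not called in WAT. Of these, 2 genes are counted in their lists and not reported here. The ligands, the lists and the cell type markers were chosen with earlier results of these data known. Exon lengths and coordinates come from GENCODE M21 on GRCm38, promoters from RefSeq on GRCm38.p6. Python 3.11.15 with numpy 2.4.6 and pandas 2.3.3 prepared the tables.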

Additional observations from a re-analysis of the deposited data

Results flagged for a closer look

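In 68 groups of 4 or 5 libraries, the highest or lowest value on the log2(CPM + 1) scale was compared with its nearest neighbour, and chance alone would mark about 3.4 of them. A gap large against the range of its group was found in 4. Ccl2 in sham WAT library 1 was 17.5 CPM, with the next sham library at 34.5 CPM (gap of 0.874 of the range). Ccl6 in sham jejunum library 2 was 26.7 CPM, with the next at 40.8 CPM (0.872). Cxcl9 in sham muscle library 3 was 4.8 CPM, with the next at 1.1 CPM (0.91). Cxcl16 in sham liver library 1 was 6.4 CPM, with the next at 10.7 CPM (0.887). Without these libraries Ccl2 in WAT and Cxcl16 in liver were still called.

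Ccl2 and Ccl6 had every RYGB library above every sham library in liver and below every sham library in WAT. The log2 fold change of liver exceeded that of WAT by 3.5 for Ccl2 and by 2.85 for Ccl6. This difference between the tissues was not tested, because their tables were normalised separately.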

How the results depend on the processing

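The calls of Ccl2, Ccl7, Ccl6 and Cxcl16 in liver, of Ccl2, Ccl6, Ccl9 and Cxcl16 in WAT and of Cxcl16 in jejunum were made under every alternative in which the gene was tested. Ccl7 in WAT was called in 8 of 14 alternatives and Cxcl14 in WAT in 13 of 14. Over the single ligands, 452 values under an alternative kept direction and call, 11 gained a call, 7 lost one and 35 changed sign.

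A minimum mean of 10 CPM left fewer genes tested and called 2 ligands and 1 receptor in liver, 4 other ligands in WAT, 3 macrophage markers in liver and 1 interferon-gamma-induced gene in liver. A pseudocount of 0.1 called 1 other ligand in liver and turned Cxcl10 in ileum to -0.42. Lane as a covariate called 8 macrophage markers in liver and 15 in WAT (11 lower and 4 higher) and turned Cxcl12 and Cxcl14 in liver to -0.042 and -0.053. It could not be fitted in ileum, where no lane held both groups. Median-ratio scaling turned Ccl6 in jejunum to 0.029, and Cxcl12 and Cxcl14 in liver to -0.12 and -0.12.

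The labels do not say that a replicate number marks a shared mouse, day or batch. Same-numbered RYGB and sham libraries correlated between -0.281 and 0.389 in their deviations from the group means, with 11 of 23 pairs over 0.1 and 8 of 23 libraries closest to their own number, so the numbers were not taken as pairs. With the replicate block, 1 ligand was called in duodenum, 2 in jejunum, 1 other ligand and 9 macrophage markers in liver, Ccl6 in jejunum was 0.019 and Cxcl10 in duodenum 0.11. With it 5 ligands were called in liver, Cxcl9 being added (0.62, adjusted p = 0.0219), and 7 in WAT, Ccl8 being added (0.73, adjusted p = 0.0327). In liver 3 of 4 pairs were over 0.1, and in WAT 2 of 4.

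With 1 library left out in turn, the number called ranged over 0 to 1 ligands in duodenum, 1 to 2 in jejunum and 0 to 1 in ileum, 0 to 3 other ligands in liver and 4 to 9 in WAT, 5 to 7 receptors in WAT, 3 to 7 macrophage markers in liver and 6 to 11 in WAT, and 0 to 2 interferon-gamma-induced genes in liver. Log2 fold changes that changed sign ranged in muscle from -0.0098 to 0.50 for Ccl2, -0.21 to 0.49 for Ccl6, -0.26 to 0.53 for Ccl9, -0.092 to 0.44 for Cxcl9 and -0.099 to 0.21 for Cxcl12, in liver from -0.042 to 0.13 for Cxcl12 and -0.33 to 0.38 for Cxcl14, and from -0.33 to 0.12 for Ccl6 in jejunum. Those of Cxcl10 ranged from -0.082 to 0.55 in WAT, -1.13 to 0.54 in duodenum and -0.70 to 0.75 in ileum. The causes of these changes were not tested. The unknown depth and the rounding to 0.1 CPM limit genes near 1 CPM, such as Ccl7 in liver and Cxcl16 in muscle.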

Other observations

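Marker lists of further cell types gave these values beside the ligands. In liver, 3 of 7 listed fibroblast markers were higher after RYGB, beside 5.79% of all genes: Col1a1 (log2 fold change 1.32 ± 0.35), Lum (1.12 ± 0.23) and Pdgfra (0.89 ± 0.21). The sum of all 7 was 532 to 911 CPM after RYGB and 380 to 527 CPM in sham. Of the 6 listed neutrophil markers in liver, 3 were called higher, S100a9, Retnlg and Csf3r, beside the same 5.79%. All 6 had every RYGB library above every sham library, beside 13.4% of all genes. Retnlg was below 1 CPM in every sham library of liver, so it was listed there only through RYGB. By limma, 0 of 6 stellate and sinusoidal endothelial markers were called in liver (4 at an unadjusted p under 0.05), 0 of 4 endothelial markers (2), 0 of 6 hepatocyte markers (0), 0 of 3 B cell markers (1), 0 of 2 adipocyte markers (1), 0 of 2 keratinocyte markers (1), 0 of 2 enterocyte markers (1), 0 of 2 lymph node markers (1) and 0 of 1 T cell marker (1), and no muscle fibre marker was listed.

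In WAT, 0 of 8 fibroblast markers were called (0 at an unadjusted p under 0.05), 0 of 4 neutrophil markers (0), 0 of 1 hepatocyte marker (0) and 0 of 2 muscle fibre markers (0). With lane as a covariate, 5 of the 8 fibroblast markers were called lower, among them Pi16 (-2.19, limma, adjusted p = 0.00482) and Col1a1 (-1.46, adjusted p = 0.0132), and the neutrophil marker S100a9 was called higher (2.28, adjusted p = 0.0154). Of the others, 2 of 5 stellate and sinusoidal markers and 1 of 4 enterocyte markers were higher, beside 14.9% of all genes. The enterocyte marker Cdh17 was below 1 CPM in every sham library of WAT, so it was listed only through the RYGB libraries. In muscle, the 5 fibre genes summed to between 99723 and 166350 CPM, and in the villi the 5 enterocyte genes to between 12766 and 22250 CPM in duodenum, 15000 and 25327 CPM in jejunum and 13989 and 18709 CPM in ileum. The macrophage list had 0 of 13 tested genes called by limma in muscle (0 at an unadjusted p under 0.05) and 0 of 9 in duodenum (4). In jejunum 1 of 7 tested was higher, beside 4.62% of all genes. In ileum 1 of 7 was higher and 1 lower, beside 6.05% of all genes called in either direction.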
